A study of Mus musculus with 75 samples.

Results

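To trace skeletal muscle transcripts in cultures of mouse skin fibroblasts, 10 genes were followed in every RNA-seq library of a study of replicative senescence: Pax7, Myod1, Myog, Myh3, Myl1, Tnnt3, Actc1, Acta1, Des and Chrna1. They were listed by name as genes of skeletal muscle, with their course over the passages already known from these data, and they are 10 of the 24984 genes in the count files. Their values over the passages are therefore given as a description, and the tests there are not independent evidence of that course. At passage 1 (P1), 8 of the 10 were present at clear levels and at least 6.59 times as high as at P3, whereas Acta1 (skeletal muscle alpha-actin) stayed between 70.0% and 124% of its P1 level at the later passages. Pax7 was near 0 throughout.

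All cells were primary mouse skin fibroblasts, which are not clonal, and the study compared their transcriptome and chromatin over passages. The passage series was untreated, came from female C57BL mice (the B6 strain) 2 months old, and was split 1 to 3 at each passage. Its RNA-seq has 4 libraries at every passage sampled (P1, P3, P5 and P7), and its ATAC-seq, an assay of accessible chromatin, has 4 samples at P1 and 3 at every later passage. In the other 28 RNA-seq libraries the cells carried a lentivirus. These were E2f4 overexpression under doxycycline (2 libraries, P4 cells) with vector controls that expressed EGFP (2 libraries), and knockdowns by shRNA with non-targeting hairpins (nt) as controls. The knockdowns were E2f4_sh1 and E2f4_nt (P3 cells), Tead1_sh3, Tead1_sh4 and Tead1_nt, and Atf3_sh5, Atf3_sh6 and Atf3_nt, with 3 libraries each. Knockdown cells were selected with puromycin. The paper calls the Atf3 knockdown cells pre-senescent, and no passage number is tied to the Tead1 or Atf3 libraries. Its methods give passages for proliferating cells and for senescence interventions in general, without naming the gene. The manipulated cells came from newborn mice and from mice 2 months old, and no label tells which library had which. The paper names no strain for the newborn mice. No source states that replicates were separate animals, so the p-values measure only the spread between these libraries.

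Skeletal muscle forms when myoblasts leave the cell cycle and fuse into myotubes. PAX7 marks the satellite cells, the resident stem cells of muscle, MYOD1 commits cells to the lineage, and MYOG drives terminal differentiation, after which the genes of the sarcomere, the contractile unit, are switched on. Embryonic myosin and cardiac alpha-actin are made early in this process and again in regenerating fibres and cultured myotubes. Skin of the mouse lies on the panniculus carnosus, a thin sheet of skeletal muscle. Fibroblasts in culture, on the other hand, express smooth muscle actin (Acta2) and related genes when they turn into myofibroblasts.

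Total counts lay between 9147324 and 27552949 over the 44 RNA-seq libraries. Replicates differed beyond sampling noise in all 50 pairs, where chi-square divided by its degrees of freedom was 2.74 to 59.9. Levels are counts per 1e6 counts (CPM) after scaling with TMM factors. The fibroblast label was checked by 10 fibroblast genes, whose summed level was 25040 to 26690 CPM at P1 and 48360 to 58670 CPM at P7, none of them at 0. The genes did not move together. At P7 against P1, 3 were called higher (Col3a1, Fn1 and Thy1) and 3 lower (Pdgfra, Dcn and Lum). Over all genes tested, 8.1% were higher and 13.3% lower. One library each of E2f4_nt and Atf3_sh5 stood apart in quality. E2f4_nt replicate 1 had 18352 genes with a count, against 14984 and 15510 in the other E2f4_nt libraries, and in Atf3_sh5 replicate 3, 16.8% of counted reads were in rows that name no gene, against 12.5% and 13.1% in the others of its group. Among the targeted genes, E2f4 counts were 24690 and 30752 under overexpression against 812 and 825, and 186 to 226 in E2f4_sh1 against 614 to 618. Tead1 counts were 4701 to 5234 in sh3 and 5693 to 6119 in sh4 against 8959 to 10532. Atf3 counts were low in all libraries of its experiment, at 8 to 41 in sh5 and 26 to 36 in sh6 against 52 to 78. By edgeR, Atf3 was called lower in sh5 (log2 fold change -1.14, adjusted p = 0.0447) but not in sh6 (-0.79, adjusted p = 0.114). The 8 counts were in Atf3_sh5 replicate 3, the library that stood apart, against 27 and 41 in the others of sh5. The sh5 call thus drew on that library, and the change without it is not given here.

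The bases before the start sites of 4 members are shown because these members stand for the courses described below: Acta1 stayed, Actc1 and Myh3 fell to near 0, and Chrna1 fell and then levelled off. Each sequence is the 250 bases upstream of the start site that RefSeq gives on GRCm38.p6, written 5′ to 3′ on the strand of the gene, and capitals mark the motifs searched. Acta1 is at chr8:123894776-123895025 (minus strand), Actc1 at chr2:114052876-114053125 (minus strand), Myh3 at chr11:67078050-67078299 (plus strand) and Chrna1 at chr2:73580339-73580588 (minus strand).
Acta1: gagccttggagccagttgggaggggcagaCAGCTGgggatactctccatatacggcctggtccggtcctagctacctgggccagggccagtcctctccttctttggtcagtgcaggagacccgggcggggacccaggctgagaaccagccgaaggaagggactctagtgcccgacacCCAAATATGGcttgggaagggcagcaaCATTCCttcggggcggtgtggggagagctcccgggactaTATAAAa
Actc1: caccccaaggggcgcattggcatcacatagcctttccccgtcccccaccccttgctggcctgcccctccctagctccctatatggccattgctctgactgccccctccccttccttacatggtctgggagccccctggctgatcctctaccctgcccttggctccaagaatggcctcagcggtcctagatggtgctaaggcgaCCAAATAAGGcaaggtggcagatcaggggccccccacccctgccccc
Myh3: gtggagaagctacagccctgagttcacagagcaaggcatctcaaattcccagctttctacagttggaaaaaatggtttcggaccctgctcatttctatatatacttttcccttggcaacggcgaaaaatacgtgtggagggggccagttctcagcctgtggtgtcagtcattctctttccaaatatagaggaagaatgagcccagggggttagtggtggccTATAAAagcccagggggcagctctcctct
Chrna1: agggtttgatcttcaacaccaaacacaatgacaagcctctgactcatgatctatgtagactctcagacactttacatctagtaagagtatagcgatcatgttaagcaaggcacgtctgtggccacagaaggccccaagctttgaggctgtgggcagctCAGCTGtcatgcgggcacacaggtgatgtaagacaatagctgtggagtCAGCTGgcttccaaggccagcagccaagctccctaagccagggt

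The motifs searched on both strands were CAGCTG (an E-box form bound by MYOD1 and MYOG), CATTCC (the MCAT element bound by TEAD factors), the CArG box of serum response factor, the MEF2 box, and TATAAA. The upstream bases of 8 of the 10 members were examined, and those of Myod1 and Tnnt3 were not analysed here. CAGCTG was found in 4 of 8 (Acta1, Des, Myl1 and Chrna1), against 13% of 32851 promoters of the same length. The CArG box was found in 2 of 8, in Acta1 at bases -73 to -64 and in Actc1 at -47 to -38 from the start site, against 1.47% of promoters. CATTCC was found in 2 of 8 (Acta1 and Myl1) against 12.6%, TATAAA in 3 of 8 (Acta1, Myh3 and Myl1) against 12.4%, and the MEF2 box in 0 of 8 against 0.508%. Acta1 held a match to every motif but the MEF2 box, Chrna1 held CAGCTG at -92 to -87 and again at -44 to -39, and Myog and Pax7 held none of these exact forms. Looser forms, such as CTATATTTAT in the Myog bases for the MEF2 box, were not counted. These matches describe the letters only, and binding was not measured.

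Among the regulators, Pax7 (chr4:139737059-139833530, minus strand) had 3 reads in P1 replicate 4, 1 read in P7 replicate 4 and 0 in the other 14 passage libraries. A count of 0 in all 4 libraries of P3 or of P5 allows up to 3 counts. Pax7 did not pass the filter on low counts and was not tested. P1 replicate 4 is the deepest of the P1 libraries. Myod1 (chr7:46376474-46379092, plus strand) had 41, 51, 44 and 47 counts in the 4 P1 libraries, 0, 8, 5 and 2 at P3, 0, 0, 1 and 0 at P5, and 0 in all of P7. The P1 libraries were all above the P3 libraries, and a single read was left from P5 on. In the fit of all 16 passage libraries by edgeR's quasi-likelihood test, Myod1 was lower at P3 than at P1 (log2 fold change -3.54, SE 0.464, adjusted p = 2.04e-05).

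Myog (chr1:134290004-134292548, plus strand) had 122, 95, 79 and 137 counts at P1, 8, 7, 6 and 12 at P3, 1, 0, 0 and 0 at P5, and 0 in all libraries of P7. Its groups did not overlap between P1 and P3, and its log2 fold change was -3.66 ± 0.30 (SE, adjusted p = 1.34e-07). Over pooled counts P1 was 12.9 times P3 for Myog and 12 times P3 for Myod1, and against P7, where both were at 0, the P1 level was at least 126-fold higher for Myog and at least 53.3-fold higher for Myod1, with a floor of 3 counts over the 4 libraries. Intervals and floors cover counting error only.

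Among the sarcomere genes, Myh3 (embryonic myosin heavy chain, chr11:67078273-67102291, plus strand) had the largest fall to P3 of the 9 members tested. Its counts were 679, 673, 546 and 1015 at P1, 44, 36, 23 and 32 at P3, 3, 5, 1 and 1 at P5, and 0, 0, 0 and 1 at P7. In CPM this was 48.1 ± 10.7 at P1, 2.30 ± 0.59 at P3 and 0.168 ± 0.133 at P5 (mean ± SD, n = 4). Each passage thus lay below the range of the one before, except P7, which met P5 at 1 count. The log2 fold change against P1 was -4.39 at P3 (SE 0.214, adjusted p = 5.19e-11) and -8.11 at P5 (SE 0.306, adjusted p = 1.15e-12). Over pooled counts P1 was 21.2 times P3 (95% interval 17.8 to 25.4), and 4.77% of the P1 level was left at P3.

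Actc1 (cardiac alpha-actin, also made in young skeletal muscle, chr2:114047282-114052875, minus strand) had 279, 304, 217 and 330 counts at P1, 17, 20, 13 and 10 at P3, 2, 0, 1 and 3 at P5, and 0, 3, 1 and 0 at P7. This member fell nearly as far as Myh3, with 5.41% left at P3 and 0.523% at P5. Its log2 fold change was -4.19 at P3 (SE 0.263, adjusted p = 1.07e-09). Of 14 genes of cardiac muscle, 4 passed the filter and 0 were called at P3. Their summed level was 14.0 to 24.9 CPM at P1, with 2 of 14 (Myh6 and Tbx20) at 0 and 12 with reads at P1, and their part in the Actc1 reads was not tested.

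Myl1 (fast skeletal alkali light chain, chr1:66924295-66947932, minus strand) had 266, 266, 166 and 368 counts at P1, 44, 45, 24 and 44 at P3, 3, 1, 2 and 8 at P5, and 0, 0, 0 and 3 at P7. It fell more slowly than Myh3 at first, since 15.3% of the P1 level was left at P3, and then to 1.31% at P5. The log2 fold change was -2.72 at P3 (SE 0.287, adjusted p = 6.46e-07). Tnnt3 (fast skeletal troponin T, chr7:142498771-142516213, plus strand) had 133, 120, 90 and 159 counts at P1, 23, 7, 10 and 15 at P3, 5, 14, 5 and 5 at P5, and 4, 3, 6 and 2 at P7. P1 was again clear of all later libraries (log2 fold change -3.15 at P3, SE 0.317, adjusted p = 3.69e-07), but P3 and P5 overlapped (-0.94, adjusted p = 0.0997). Without P5 replicate 2, which had the 14 counts, that difference became -1.49 and was called (adjusted p = 0.0149).

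**Figure D1:**
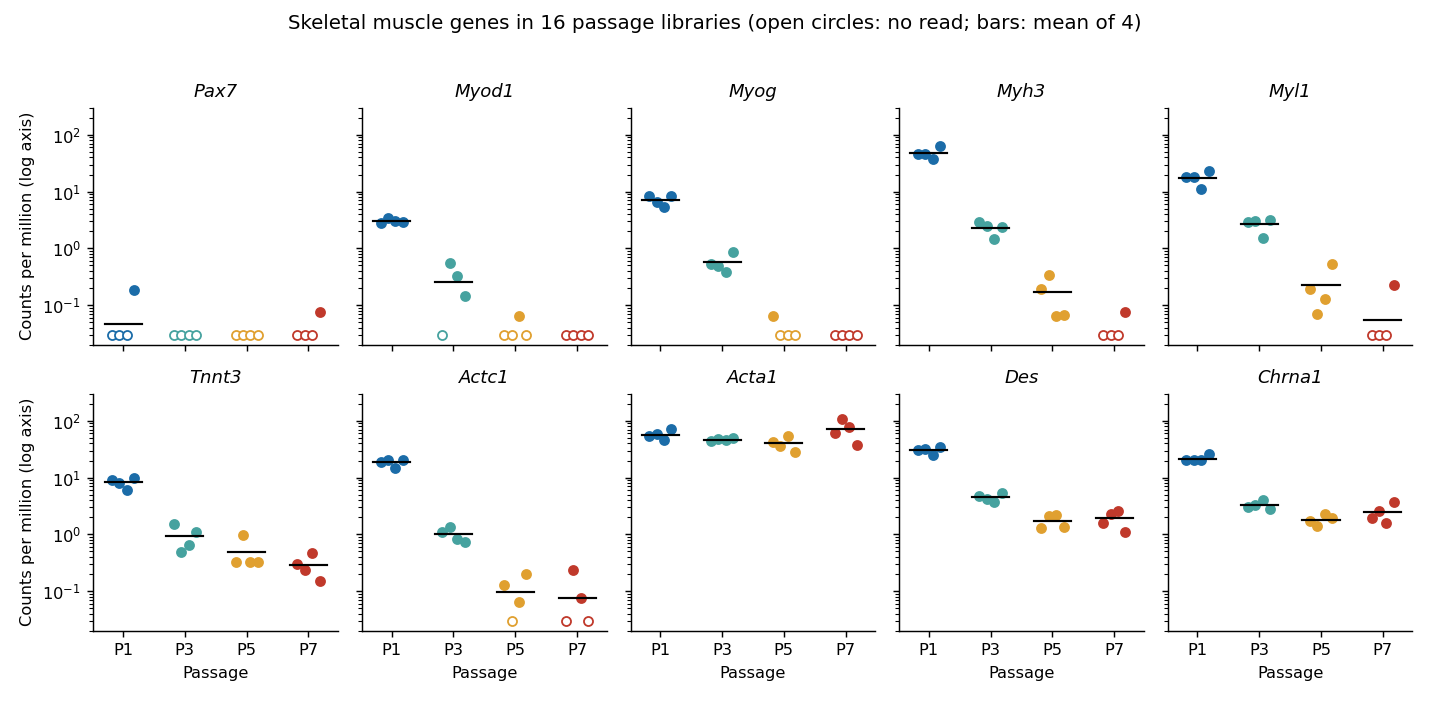
CPM of each member in every passage library (vertical log axis, horizontal axis passage, filled points are libraries, open circles are libraries with no read, bars are means of 4). Of the 9 members with reads in all P1 libraries, 8 fell from P1 to P3 without overlap, while the Acta1 points of P1 and P3 lay between 43.9 and 70.7 CPM. The share of all genes without overlap was not computed, so the count is a description.

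Acta1 (skeletal muscle alpha-actin, chr8:123891758-123894775, minus strand) did not follow the others. Its counts were 794, 851, 680 and 1142 at P1, 668, 687, 711 and 670 at P3, 664, 518, 834 and 421 at P5, and 800, 1387, 1023 and 504 at P7. All 4 passages overlapped, and the spread widened with P7, which held both a library above all others (107 CPM, replicate 2) and one near the bottom (37.4 CPM, replicate 4). The means were 57.3 ± 10.1, 46.5 ± 2.2, 40.1 ± 11.1 and 71.0 ± 29.3 CPM (SD, n = 4). The log2 fold change against P1 was -0.30 at P3 (SE 0.227, adjusted p = 0.321), -0.52 at P5 (adjusted p = 0.0661) and 0.31 at P7 (adjusted p = 0.244), and 0 of these was called. From P5 to P7 the change was 0.82 (SE 0.228, adjusted p = 0.0174), under the fold threshold, and without P7 replicate 4 it was 1.03 and was called higher (adjusted p = 0.000942), whereas without P7 replicate 2 it was 0.56 (adjusted p = 0.0892).

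Des (desmin, the intermediate filament of all muscle types, chr1:75360292-75368579, plus strand) had 440, 472, 362 and 560 counts at P1, 73, 62, 58 and 74 at P3, 20, 30, 34 and 20 at P5, and 21, 30, 34 and 15 at P7. It fell in the steps to P3 and P5 and then stayed, at 6.29% of the P1 level at P7. The log2 fold change was -2.74 from P1 to P3 (SE 0.191, adjusted p = 3.90e-09), -1.40 from P3 to P5 (SE 0.230, adjusted p = 0.000261) and 0.15 from P5 to P7 (adjusted p = 0.751). Desmin is also made by smooth muscle and pericytes, so its reads are not specific to skeletal muscle.

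Chrna1 (the alpha subunit of the muscle acetylcholine receptor, chr2:73563281-73580338, minus strand) had 293, 295, 297 and 424 counts at P1, 46, 48, 62 and 39 at P3, 27, 20, 35 and 29 at P5, and 25, 34, 21 and 51 at P7. Most of its fall came before P3 (log2 fold change -2.71, SE 0.199, adjusted p = 6.21e-09). The step from P3 to P5 was -0.85 (adjusted p = 0.0114) and stayed under the fold threshold, and at P7 the level was 2.48 ± 0.97 CPM, against 1.83 ± 0.37 CPM at P5 (SD, n = 4), with overlapping libraries. Counting ignored strand, so the counts of Des, Tnnt3, Chrna1, Pax7 and Myh3, which overlap Gm15179, Prr33, Gm30940, Gm46873 and Mir6923, may include reads of those genes. Acta1 and Actc1 shared no stretch of 100 bases with transcripts of other genes, whereas 9.36% of such stretches in Myl1 also occurred in the pseudogene Mylf-ps.

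Counted together, 9 of the 10 members passed the filter, and 8 were called lower in all 3 comparisons with P1 (Benjamini-Hochberg adjusted p under 0.05 over 13442 genes and a log2 fold change over 1 in size), where 6.58%, 10.1% and 13.3% of all genes tested were called lower at P3, P5 and P7. The comparisons share the P1 libraries, so their counts are not independent. The median log2 fold change of the 9 at P3 was -3.14, against 0.005 for all genes. Myod1 passed the filter only through P1, and Myh3, Actc1, Myl1 and Myog only through P1 and P3, so such members had to differ to be tested, and the count and the median describe them without supporting a direction. From P3 to P5, 6 of 9 were called lower (all but Acta1, Chrna1 and Tnnt3), against 3.05% of all genes, and the Myod1 call rested on few reads, since it was lost without P3 replicate 2 or 3 or P5 replicate 1 or 4. From P5 to P7, 0 of 9 were called in either direction, against 3.47% of all genes (1.19% higher). In bulk RNA, fewer muscle cells and less of these transcripts per cell cannot be told apart.

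Per kb of exon, Acta1 was the most abundant member at every passage, at 36.5 ± 6.41 CPM per kb at P1 (SD, n = 4), above the highest library of the next. Actc1 followed at 12.8, Des at 9.92, Myh3 at 7.93, Myl1 at 6.04, Chrna1 at 5.01, Myog at 4.85 and Tnnt3 at 3.77 CPM per kb. From Actc1 to Tnnt3, each overlapped with the next in this order. Myod1 lay below Tnnt3 without overlap, at 1.64 CPM per kb, and Pax7 was last at 0.00791 CPM per kb. At P7 the order was Acta1 at 45.2, Des at 0.624, Chrna1 at 0.575 and Tnnt3 at 0.130 CPM per kb, so the distance between Acta1 and the next member had grown from P1 to P7.

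The fall was not in proportion. Within a library, there were 0.363 ± 0.042 Myl1 counts per Myh3 count at P1 and 1.17 ± 0.18 at P3 (SD, n = 4), without overlap. Des counts per Myh3 count went from 0.641 to 2.05 and Chrna1 counts from 0.458 to 1.57, also without overlap, whereas Actc1 counts per Myh3 count overlapped, at 0.396 and 0.455. Acta1 counts per Actc1 count were 3.06 ± 0.31 at P1 and 48.8 ± 14.9 at P3. As a share of Acta2, the smooth muscle actin of myofibroblasts, Acta1 was 2.98% ± 0.21 at P1 and 1.43% ± 0.23 at P3, then 1.63% ± 0.62 at P5 and 2.35% ± 0.77 at P7 (SD, n = 4). Acta2 itself had a log2 fold change of 0.79 at P3 (adjusted p = 0.00081), under the fold threshold.

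Across the 16 passage libraries, the log2 CPM of the 8 falling members correlated with each other at r = 0.883 to 0.988, and Acta1 correlated with them at -0.051 to 0.264. These values are descriptions, since the points share the step from P1. Over 13442 genes, the genes most like Myh3 were Mybph (r = 0.995), Atp2a1 (0.991), Myog (0.988), Actn2 (0.987) and Myct1 (0.986). Those most like Des were S1pr1 (0.985), Cacna1s (0.982), Nts (0.981), Casq2 (0.981) and Prom1 (0.980), and those most like Chrna1 included Ncf4 (0.976), Tnnc1 (0.972), Nfam1 (0.970) and Ptprc (0.969). The genes most like Acta1 were Gpr176 (0.820), Tnk2 (0.820), Clcf1 (0.789), Mrtfa (0.773) and Dhx32 (0.756), none of which was a gene of the sarcomere.

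The other genes of skeletal muscle went with the falling members. Of 71 such genes, 50 passed the filter, of which 37 were lower and 1 was higher at P3 (6.58% and 2.4% of all genes). Genes of the sarcomere had 23 of 25 lower at P3, with a median log2 fold change of -2.83, and Mylk2 and Myom1 were not called. Ttn (titin, the molecular spring of the sarcomere) changed by -4.05 at P3 and -6.86 at P7, and Mylpf (fast skeletal regulatory light chain) by -3.08 and -5.11. Genes of excitation, calcium handling and energy supply had 12 of 17 lower at P3 (median -2.04). As with the members, many of these genes reached the filter level only at P1 (4 of the 25 sarcomere genes and 3 of the 17) or only at P1 and P3 (11 and 6), so the counts describe them.

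The list of myogenic regulators and surface markers moved less as a whole (median -0.16 at P3). At P3, 2 of 8 were called lower (Cdh15 and Mymk) and 1 higher, against 6.58% and 2.4% of all genes. Of the 8 tested, 2 reached the filter level only at P1. Its abundant members are not confined to muscle. Megf10 (a receptor of satellite cells) changed by -0.07 at P3 and -0.98 at P7, and Itga7 (a laminin receptor) by 0.35 and 1.15, called higher at P7 with 8.1% of all genes. Vcam1 (an adhesion molecule that inflamed stromal cells also make) was called higher, by 1.00 at P3 and 1.97 at P7. Summed over the list, these genes were at 148.8 to 166.1 CPM at P1 and 245.6 to 282.3 CPM at P7. Much of the P1 sum came from Megf10, Itga7 and Vcam1, with means of 41.5, 38.0 and 37.5 CPM. At P7, 4 of the 13 genes were at 0 (Myf5, Myf6, Mymx and Msc), against 0 of 13 at P1.

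Markers of other cell types fell in the same step. Of the keratinocyte genes tested, 7 of 8 were lower at P3 (summed level 75.1 to 458.9 CPM at P1 and 2.33 to 5.32 CPM at P3, Krt15 at 0 in both), of the macrophage genes 10 of 10 (334.2 to 521.8 and 47.5 to 66.3 CPM, none at 0) and of the endothelial genes 7 of 8 (165.2 to 187.1 and 43.9 to 55.6 CPM, none at 0). Of the 8 keratinocyte genes, 4 reached the filter level only at P1 and had to be lower later to be tested, which held for 0 of the macrophage and 0 of the endothelial genes. The 10 members together had 169.6 to 259.0 CPM at P1 and 58.8 to 65.7 CPM at P3. Acta1 made up most of the sum at P3 (mean 46.5 CPM) but not at P1 (mean 57.3 CPM). Among the P1 libraries, replicate 4 was highest for 7 of the 9 tested members and lowest for the keratinocyte sum (75.1 CPM) and the macrophage sum (334.2 CPM), while replicate 3 was lowest for 7 of 9 members and highest for keratinocytes (458.9 CPM). The part of other cell types in the falls of the members was not tested. Genes of smooth muscle and myofibroblasts had 2 of 15 higher (Cnn1 and Tagln) and 1 lower, which was Des itself, at P3.

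**Figure D2:**
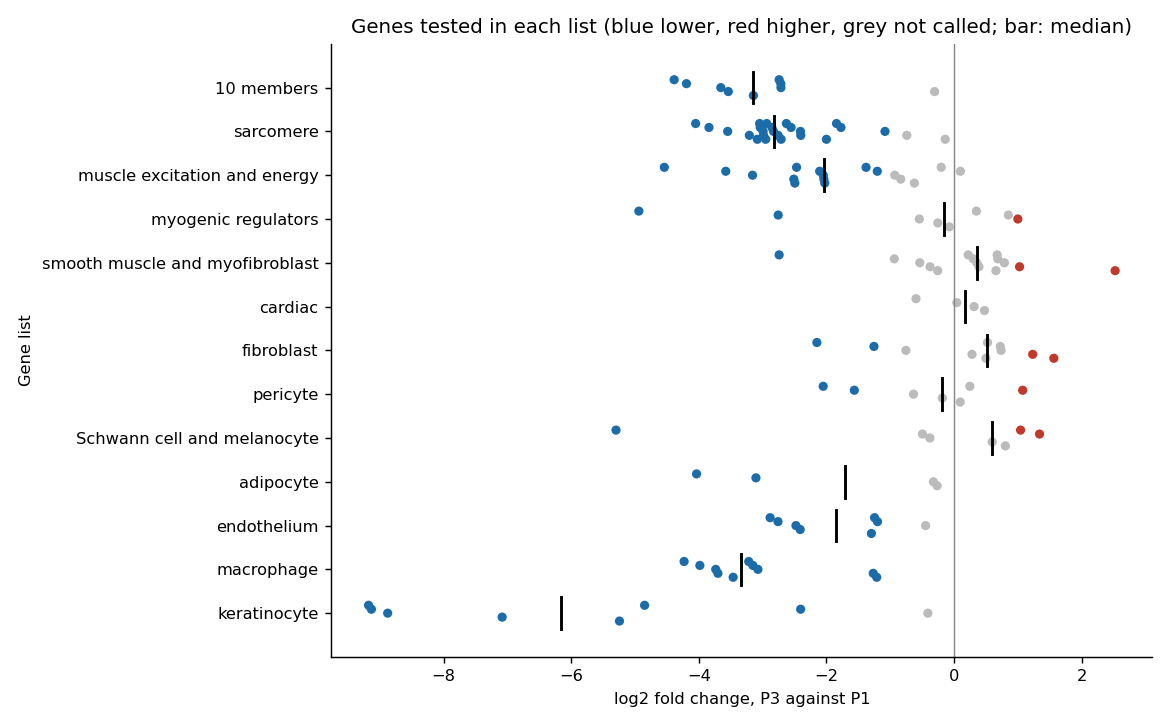
Log2 fold change of P3 against P1 for each tested gene of the members and of the other lists (horizontal axis log2, one row per list, points are genes, blue called lower, red called higher, grey not called, bars are medians, edgeR on 16 libraries). The members other than Acta1 lay at -2.71 and below, and the keratinocyte, macrophage and endothelial medians were -6.16, -3.34 and -1.85.

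In the ATAC-seq, a member counted as having a peak when a peak called in that sample lay within 1000 bases of an annotated start site. Each sample had 142384 to 231558 peaks, and 67.7% to 70.6% of 21000 protein-coding genes had such a peak. Among the 10 members, 4 to 6 had one per sample, and the means were 4.75 (P1), 4.67 (P3), 5 (P5) and 4.33 (P7). The peak lists hold no read counts, so the depth behind them is unknown and no test was made.

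Actc1, Myod1, Myog and Pax7 had no peak within that distance in any of the 13 samples, including the 4 of P1. Chrna1 and Tnnt3 had one in 13 of 13. Within 500 bases of the start site Chrna1 kept a peak in every sample. Tnnt3 had one there in 1 of 4, 2 of 3, 2 of 3 and 0 of 3 samples of P1, P3, P5 and P7. The bases covered at Chrna1 were 692 ± 263 at P1 and 760 ± 200 at P3, then 512 ± 129 at P5 and 343 ± 32 at P7 (SD, n = 4 at P1 and 3 at the others). Myl1, by the more downstream of its start sites, had a peak in 4 of 4 samples at P1, 1 of 3 at P3 and 3 of 3 at P5 and P7 each. Within 500 bases Myl1 had no peak in any sample.

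Myh3 had a peak in 4 of 4 samples of P1 and 3 of 3 of P3 but 1 of 3 at P5 and P7 each. At P1 it was among the strongest peaks of its sample (percentile 93.3 to 96.9 by −log10 p), but it lay mostly upstream of the window and reached only 41 to 99 bases into it, and within 500 bases of the start site there was none at P1. At Acta1, peaks were found in 1 of 4, 1 of 3, 3 of 3 and 1 of 3 samples of P1, P3, P5 and P7, and they were weak, at percentile 3.55 to 21.2, with a fold enrichment of 2.08 to 3.19. Des peaks were found in 2 of 4, 3 of 3, 2 of 3 and 2 of 3 samples, also in the lower part of the distribution (percentile 5.56 to 34.9).

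**Figure D3:**
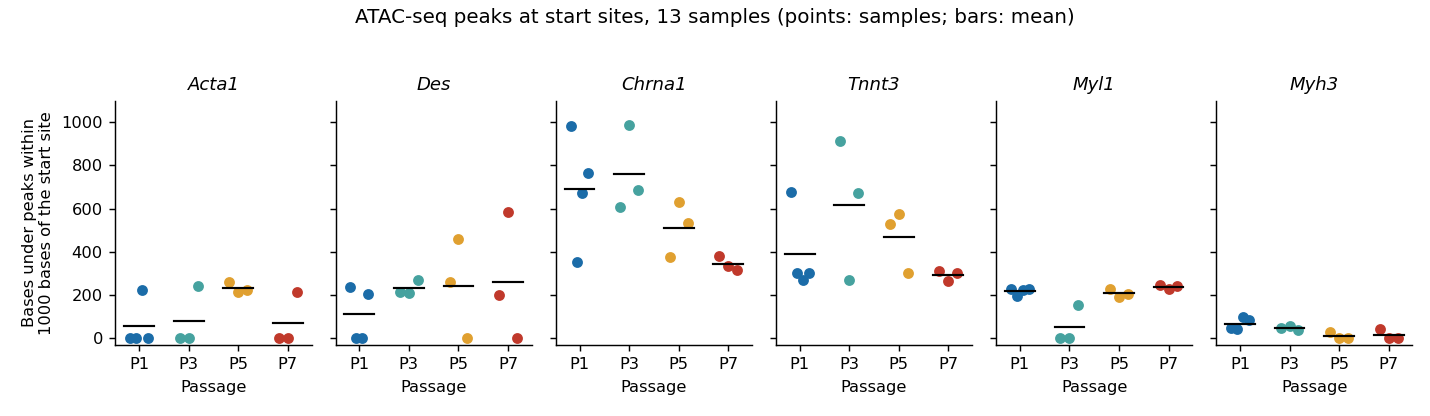
Bases covered by ATAC-seq peaks within 1000 bases of a start site (vertical axis) for 6 members at each passage, with points for the 13 samples and bars for means. Chrna1 and Tnnt3 were above 0 in all samples, and Acta1 was at 0 in most samples of P1, P3 and P7.

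In the 28 libraries of the manipulated cells, most members were near 0. Myl1 had 0 counts in all 28, which allows up to 0.00621 CPM (3 counts of 483051454). Myh3 had 18 counts in all, of which 10 were in Atf3_sh5 replicate 3, the library that stood apart, and it was at 0 in 20 of 28. Myod1 had 4 counts, Myog 6 and Pax7 4. Actc1 had 44 counts, of which 27 were in the 3 Atf3_sh6 libraries (9, 11 and 7), where the non-targeting libraries had 3, 0 and 0 and the sh5 libraries 0. Actc1 did not pass the filter in that experiment.

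Only Acta1 and Des were tested in the E2f4 experiments, Acta1, Des and Chrna1 in the Tead1 experiment, and Tnnt3 beside these in the Atf3 experiment. Calls were made for Acta1 under E2f4 overexpression and with both Atf3 hairpins, for Chrna1 in Tead1_sh4, and for Des and Tnnt3 in Atf3_sh6. Acta1 was at 1505 and 1292 counts in the vector controls and 569 and 466 under E2f4 overexpression, or 70.1 ± 6.19 and 21.5 ± 1.12 CPM (SD, n = 2). The groups were far apart, and Acta1 was called lower (log2 fold change -1.71, SE 0.125, adjusted p = 6.02e-06), as 1 of the 2 members tested, where 10.4% of all genes were called lower. Des was not called (0.43, adjusted p = 0.435), and without 1 control library its change was -0.21 (replicate 1 left out) or 1.33, called higher (replicate 2 left out).

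Under E2f4 knockdown, Acta1 counts were 677, 704 and 689 in E2f4_nt and 1288, 1181 and 964 in E2f4_sh1 (67.2 and 119.3 CPM). All 3 knockdown libraries were higher, with a log2 fold change of 0.83 (SE 0.082, adjusted p = 1.28e-05), which was under the fold threshold, so 0 of 2 members were called, against 1.67% of all genes. Without E2f4_nt replicate 1, the library that stood apart, the change of Acta1 was 0.81 (adjusted p = 0.000603). Des counts were 77, 69 and 81 in E2f4_nt and 66, 57 and 50 in E2f4_sh1, without overlap, and the difference was not called (-0.29, adjusted p = 0.305).

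Under Tead1 knockdown, the Acta1 counts were 1631, 1651 and 1817 in Tead1_nt, 1251, 1215 and 1123 in sh3 and 1526, 1324 and 1277 in sh4. Both hairpins were lower, by -0.50 (adjusted p = 1.98e-08) and -0.36 (adjusted p = 9.59e-06) on the log2 scale, under the fold threshold. Chrna1 had 7, 3 and 6 counts in Tead1_nt, 8, 15 and 12 in sh3 and 21, 12 and 21 in sh4. It was called higher in sh4 (1.68, SE 0.481, adjusted p = 0.00809), where 1.01% of genes were called higher, and not in sh3 (1.12, adjusted p = 0.0953), on counts that are low in all groups. Chrna1 reached the filter level in knockdown libraries only and in no Tead1_nt library, so it passed the filter through the groups where it was higher, and the call is a description. The hairpins share their controls. Des was lower in sh3 by -0.53 (adjusted p = 0.0244) and not in sh4 (-0.18), and was not called, so 0 of 3 members were called in sh3, against 2.71% of all genes.

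Under Atf3 knockdown, the hairpins moved Acta1 in opposite directions. Its counts were 831, 623 and 762 in Atf3_nt, 265, 297 and 189 in sh5 and 3668, 3508 and 3347 in sh6, or 34.9 ± 0.60, 13.4 ± 2.4 and 206 ± 10.1 CPM (SD, n = 3). None of the 3 groups overlapped. Acta1 was called lower in sh5 (log2 fold change -1.38, SE 0.118, adjusted p = 8.01e-05), where 3.82% of genes were called lower, and higher in sh6 (2.56, SE 0.116, adjusted p = 1.21e-07), where 4.83% were called higher. Without Atf3_sh5 replicate 3, which stood apart, the sh5 change was -1.21 (adjusted p = 4.32e-08). The difference between the hairpins was 3.94 (SE 0.125, adjusted p = 5.94e-08), and 6.36% of genes were called higher in sh6 than in sh5. This comparison was added after the values were seen. The sh6 level was the highest of Acta1 in any group. In the same libraries Acta2 was at 2552 to 2793 CPM in Atf3_nt, 1881 to 1951 CPM in sh5 and 5851 to 6175 CPM in sh6, with log2 fold changes of -0.50 and 1.16, and of 15 genes of smooth muscle and myofibroblasts 6 were higher in sh6 than in Atf3_nt. As a share of Acta2, Acta1 was 1.29% in Atf3_nt, 0.701% in sh5 and 3.41% in sh6.

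Of the other members tested, 0 were called higher in sh6. Of 24 other skeletal muscle genes tested there, 4 were higher (Chrnb1, Mylpf, Ryr1 and Ttn) and 5 were lower, and of 8 pericyte genes 6 were lower and 1 was higher. Des was at 51, 48 and 69 counts in Atf3_nt, 23, 36 and 44 in sh5 and 17, 28 and 22 in sh6, and was called lower in sh6 (-1.01, SE 0.311, adjusted p = 0.02) but not in sh5 (-0.52, adjusted p = 0.19). Tnnt3 was at 16, 10 and 15, 2, 14 and 4, and 3, 2 and 0 counts, and was called lower in sh6 (-2.64, SE 0.809, adjusted p = 0.0199), so 2 of 4 members were lower there, against 10.9% of all genes. Tnnt3 reached the filter level only in Atf3_nt and Atf3_sh5 libraries, so its call and the count that holds it are descriptions. The calls of Des and Tnnt3 were each lost when single libraries were left out (Atf3_nt replicate 3, or Atf3_sh6 replicate 1 or 3 for Des, and Atf3_nt replicate 1 or 3, or Atf3_sh6 replicate 2 or 3 for Tnnt3). Chrna1 counts overlapped (9, 10 and 13, 9, 13 and 25, and 22, 10 and 19), and it was not called in sh5 (0.74, adjusted p = 0.246) or sh6 (0.97, adjusted p = 0.115). Without Atf3_sh5 replicate 3 its sh5 change was 0.21 (adjusted p = 0.758).

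**Figure D4:**
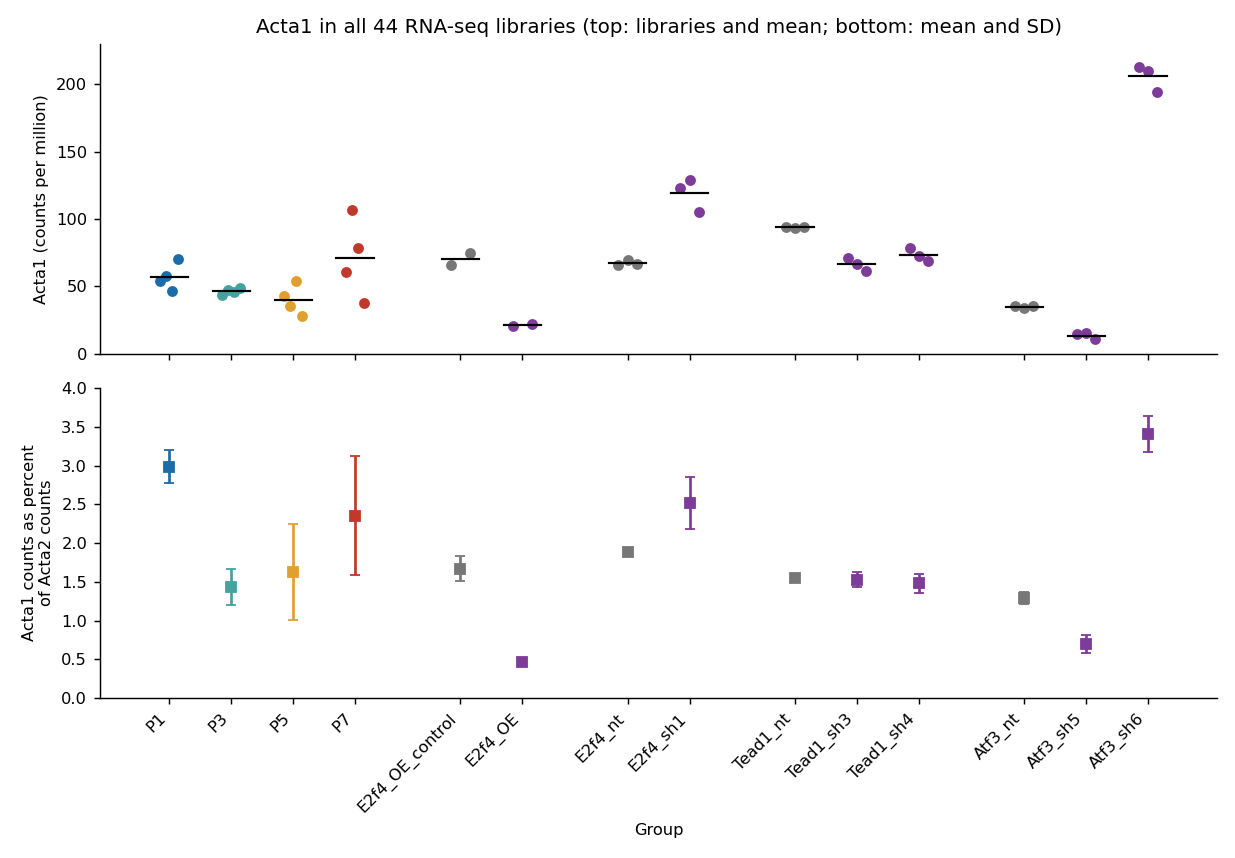
Acta1 in CPM in each of the 44 RNA-seq libraries by group (top, points are libraries and bars are means) and Acta1 counts as a percent of Acta2 counts (bottom, mean and SD of the libraries). The Atf3_sh6 libraries were the highest, at a mean of 206 CPM, and the Atf3_sh5 libraries the lowest, at a mean of 13.4 CPM.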

How the data were processed

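RNA-seq libraries of the passages and of the manipulated cells and ATAC-seq samples of the passages were used. According to the submitters' notes, the authors trimmed reads with Trimmomatic 0.39, aligned RNA-seq to mm10 with HISAT2 2.2.1 and counted genes without strand with HTSeq 0.12.4. The deposited values are raw counts, not normalized. The authors aligned ATAC-seq with Bowtie2 2.3.5.1 and called peaks per sample with MACS2. The deposited peak lists give the fold enrichment (a ratio), the −log10 p and the −log10 q of each peak, and rows that shared a peak were merged. RRBS data were not used here. In the files of the manipulated cells, 7.50% to 16.8% of counts were in rows that name no gene, which were left out.

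Each experiment was fitted with edgeR 4.0.16 in R 4.3.3 (filterByExpr, TMM, quasi-likelihood test, Benjamini-Hochberg adjustment). Likeness is Pearson's r of log2 CPM with a prior count of 2. Members and lists were chosen with earlier results of these data known. The text names the members, the 5 genes most like Myh3, Acta1, Des and Chrna1, defining genes of the other lists, the 5 most abundant other muscle genes and the targeted genes. A result that this choice covers is not reported here. Tests were checked on simulated counts. Alternatives were DESeq2 1.42.0, its size factors, no filter, at least 10 counts in every library, a replicate block, a fit of 2 passages alone, each library left out in turn, and, for peaks, a stricter −log10 q and a narrower window. Start sites and upstream bases are from RefSeq GRCm38.p6.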

Additional observations from a re-analysis of the deposited data

Results flagged for a closer look

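Of 36 sets of 4 passage libraries (a member at a passage), 8 had a library far from the other 3. For continuous values chance gives about 1 in 20, which does not hold for 6 of the 8, where the other 3 libraries were at 0 and any read sets a library apart. In these the library apart held 1 to 3 reads. These were Myh3 at P7 (replicate 4, 0.0742 CPM), Myod1 at P5 (replicate 3, 0.0646 CPM), Myog at P5 (replicate 1, 0.0646 CPM), Pax7 at P1 (replicate 4, 0.186 CPM), Pax7 at P7 (replicate 4, 0.0742 CPM) and Myl1 at P7 (replicate 4, 0.223 CPM). Tnnt3 in P5 replicate 2 was at 0.968 CPM, against 0.323 to 0.331 CPM in the others. Chrna1 in P1 replicate 4 was at 26.2 CPM, against 20.1 to 20.3 CPM in the others. The log2 fold change of Acta1 in Atf3_sh6 minus that in Atf3_sh5 was 3.94, since the hairpins differed from their shared controls in opposite directions.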

How the results depend on the processing

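The counts of members called lower at P3, P5 and P7 stayed at 8 without any single library, by DESeq2, without a filter and with the replicate block. With at least 10 counts in every library, only 2 members were called lower at P3, P5 and P7 each, and 1 at P5 against P3, since that filter removes members that fell to near 0. The same filter gave 0 higher in Tead1_sh4 and 1 lower in Atf3_sh6, as did DESeq2's size factors for the latter. By DESeq2 and without a filter, 2 members were higher in Atf3_sh6 than in Atf3_nt and than in Atf3_sh5, the second being Actc1. Without 1 library, the number lower was 5 to 7 at P5 against P3 and 0 to 2 in Atf3_sh6, and the number higher was 0 to 1 at P7 against P5 and 0 to 1 under E2f4 overexpression (Des, without a control library). Among single members, some changes that were not called turned sign without 1 library. These were Actc1 at P7 against P5 (-1.67 to 0.184, also 0.031 and 0.044), Des at P7 against P5 (-0.036 to 0.338) and under overexpression (-0.206 to 1.329), and Chrna1 in Atf3_sh6 against Atf3_sh5 (-0.048 to 0.761, also -0.004). Members with a peak were 4.67 to 5, 4 to 5, 4.5 to 5.5 and 4 to 4.5 per sample at P1, P3, P5 and P7 without 1 sample. With a −log10 q of at least 5 they were 4, 3.67 and 3.67 at P1, P5 and P7, and within 500 bases 2, 3, 3.33 and 1.67 at P1, P3, P5 and P7. No label ties replicate numbers across passages, and the numbers were not taken as pairs, since 24 same-numbered pairs of passage libraries correlated between -0.262 and 0.276 in their deviations, 11 of them over 0.1, and the replicate block changed no call. Low counts limit Pax7, Myod1, Myog and all members near 0.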

Other observations

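Among the skeletal muscle genes that rose, Ldb3, Myom1 and Pgam2 rose from P5 to P7, as did 1.19% of all genes, while Pax3 was called higher at P7 against P1 (log2 fold change 1.56, edgeR). Genes of smooth muscle and myofibroblasts had 9 of 15 higher in Atf3_sh6 than in Atf3_sh5, against 6.36% of all genes. Of the adipocyte genes, 2 of 4 were lower at P3, against 6.58% of all genes. Pericyte genes had 2 of 7 lower and 1 higher (Mcam) at P3, against 6.58% and 2.4% of all genes.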
